A study of Rattus norvegicus with 3 samples.

Results

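The genes described here encode the proteasome, the protease complex that degrades proteins tagged with ubiquitin. They were taken by symbol, as every gene whose symbol begins Psma, Psmb, Psmc, Psmd or Psme followed by a digit, without the immunoproteasome genes Psmb8, Psmb9 and Psmb10. This rule found 41 of the 20667 genes that had a probe set of their own on the array, and it used no measured value. Of the 41, 39 were measured, meaning that at least 1 of the 3 arrays reached the background level, and each of these 39 was above that level on all 3 arrays. Psma8, a testis form of an alpha subunit, was at 3.03, 3.06 and 2.95 log2 on the control, day 2 and day 5 arrays. Psmb11, a thymus form of a catalytic beta subunit, was at 3.0, 3.0 and 2.99 log2. Both lay under the background level of 5.34 log2 on every array, so neither has a fold. The symbol rule also took in Psmc3ip, which encodes a meiotic recombination factor that binds a proteasome ATPase and is not itself a subunit. It was kept in the counts.

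RNA came from whole kidneys of 3 male rats, with 1 Clariom S array per rat. The control group is 1 rat, the second group is 1 rat given ethylene glycol (EG) by mouth at 8 g/kg and labelled 2 days, and the third is 1 rat given the same dose and labelled 5 days. EG is a solvent that the body oxidises to oxalate, which forms calcium crystals in kidney tubules, and the study's title names kidney stones and tubular injury. The labels can be read as dosing over 2 or 5 days or as sampling 2 or 5 days after a dose, and the sources used here do not give strain, age or any vehicle for the control. With 1 rat per group no difference has a replicate check, no test was run, and every value describes these 3 arrays, whose number limits the precision. All values are on the deposited log2 scale, where a difference of 1 is 2-fold. Every comparison with control uses the same control array, so what is particular to that array enters both.

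Defining kidney markers were present. Umod of the thick ascending limb was at 18.79, 18.69 and 18.67 log2 on the control, day 2 and day 5 arrays, and Aqp2 of the collecting duct at 12.61, 12.64 and 12.95 log2. In the same limb, Slc12a1 differed from control by -0.51 and -0.18 log2 on day 2 and day 5, and Cldn16 by -0.20 and -0.71 log2. In the collecting duct, Aqp3 differed by 0.83 and 0.21 log2, and Atp6v1b1 by -0.32 and -0.55 log2. The distal tubule markers Slc12a3 (-0.75 and -1.09 log2) and Calb1 (-1.04 and -0.21 log2) were below control on both days. Markers of several cell types differed between the arrays. Of 9 proximal tubule markers, 6 were at least 1.5-fold lower than control on day 2 and 7 on day 5, and the log2 of their summed signal was 20.74, 19.88 and 19.83. Over all measured genes, 9.18% and 12% were at least 1.5-fold lower on day 2 and day 5, and 14.8% and 15.1% higher. Of 10 leukocyte and macrophage markers, 7 and then all 10 were at least 1.5-fold higher, with log2 summed signals of 15.31, 16.95 and 17.22. Most of this sum was Lyz2 alone, at 15.24, 16.91 and 17.18 log2. Of 4 fibroblast markers, 1 (Dcn, at 14.20, 16.06 and 15.24 log2) was at least 1.5-fold higher on day 2 and all 4 on day 5. Their log2 summed signals were 14.40, 16.14 and 15.65, while Col1a1, Col3a1 and Pdgfrb were each highest on day 5. The 3 red cell markers had log2 summed signals of 16.16, 14.36 and 12.96, most of it from Hbb (16.11, 14.3 and 12.87 log2). The T cell markers Cd3e and Cd3d were under the background level on all 3 arrays. In whole tissue, fewer cells of a type and less RNA per cell cannot be told apart. The part of these shifts in the proteasome values was not tested.

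The 26S proteasome is built from a barrel-shaped 20S core with a 19S regulatory cap at one end or at both. The core stacks outer rings of alpha subunits, which gate the entry, on inner rings of beta subunits, of which Psmb5, Psmb6 and Psmb7 encode the proteolytic ones. Each cap has a base with a ring of ATPases that unfold the substrate and a lid that removes the ubiquitin chain. Other activators can take the place of the cap, namely PA28 (Psme1 with Psme2, or Psme3 alone) and PA200 (Psme4). In mammalian cells, subunit genes are known to be transcribed together by NRF1 (Nfe2l1), which binds antioxidant response elements, when proteasome activity is short.

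Because that element is the known shared feature of subunit promoters, the RefSeq promoter windows of the measured members were searched for its core on both strands. The windows (assembly GRCr8) run from 250 bases before to 50 bases after the start of the gene. The core was taken in the forms TGACNNNGC and TGAGNNNGC. Windows were found for 35 of the 39, and 8 of these 35 (22.9%) held TGACNNNGC, beside 12.2% of all 27457 windows and 14.9% of the 9514 windows of measured genes. TGAGNNNGC was held by 9 of the 35 (25.7%), beside 17.2% and 19.7%. The sequences below are the stretches around each TGACNNNGC core that lies before the start. They are shown because they hold the letters that the count of 8 rests on, apart from Psmd3. They run 5′ to 3′ on the strand of the gene with the core in capitals. In the lines for Psma3, Psme4 and the first of Psmd9 the core is on the opposite strand, so the capitals are its reverse complement.
Psma3: aagcgttctgtggcctGCCGGGTCAgca
Psmb2: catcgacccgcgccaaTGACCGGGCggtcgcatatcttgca
Psmb5: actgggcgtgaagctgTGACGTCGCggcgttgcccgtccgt
Psmb6: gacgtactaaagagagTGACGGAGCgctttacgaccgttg
Psmd1: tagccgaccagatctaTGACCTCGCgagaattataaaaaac
Psmd9: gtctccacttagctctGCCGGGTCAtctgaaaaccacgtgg
Psmd9: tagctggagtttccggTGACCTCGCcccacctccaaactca
Psme4: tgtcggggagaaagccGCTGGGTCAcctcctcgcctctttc
On GRCr8, which is not the build (rn6) of the array annotation, these stretches are chr6:95219721-95219748 (plus strand) for Psma3, chr5:144254974-144255014 (plus) for Psmb2, chr15:32047415-32047455 (minus) for Psmb5 and chr10:55737848-55737887 (plus) for Psmb6. Those of the other genes are chr9:94157790-94157830 (plus) for Psmd1, chr12:39018364-39018404 and chr12:39018317-39018357 (both minus) for Psmd9, and chr14:108706572-108706612 (plus) for Psme4. All lie in the promoter window upstream of the annotated start. The core ends 4 bases before the start in Psma3 and 157 bases before it in Psmd1, with the others in between. In Psmb2 it overlaps a CCAAT box and a GC box. Psmd3, the remaining gene of the 8, has its core after the start, and Psmd1 has a further core there. Those cores are not shown.

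Beyond this core, CCAAT was found in 18 of the 35 windows (51.4%), beside 37.4% of the windows of measured genes. GGGCGG was found in 26 (74.3%), beside 60.9%, and CACGTG in 5 (14.3%), beside 9.13%. As given above, the core form TGAGNNNGC was found in 9 (25.7%), beside 19.7%. Over all 27457 windows, these shares were 37.7% for CCAAT, 34.9% for GGGCGG, 6.65% for CACGTG and 17.2% for TGAGNNNGC, with both strands searched for each. The 8 members with TGACNNNGC had a median day 2 minus control difference of 0.37 log2, and the 27 others 0.57 log2. For TGAGNNNGC the order was the other way, 0.53 log2 with the core and 0.40 log2 without. It was 0.50 and 0.40 log2 for CCAAT, 0.53 and 0.36 log2 for GGGCGG, and 0.38 and 0.50 log2 for CACGTG. These splits were not tested. A match describes letters in the window and not binding of a factor.

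On day 2, the proteasome genes were mostly higher than in the control kidney. Of the 39 measured genes, 34 (87.2%) had a higher signal, beside 54.2% of all 13546 measured genes, and the median difference was 0.52 log2 (quartiles 0.19 and 0.69), beside 0.05 log2 over all measured genes. Without Psmc3ip the median was 0.53 log2. Under the 5 scalings between arrays that were tried, the deposited one included, it lay between 0.41 and 0.52 log2. At least 1.5-fold higher were 17 of the 39 (43.6%), beside 14.8% of measured genes, and none was at least 1.5-fold lower, beside 9.18%. A single gene, Psmb1, reached 2-fold (4.45% of measured genes did so upwards and 2.45% downwards). Psmd6 and Psmd7, at 0.59 log2 each, lay just inside the 1.5-fold bound of 0.585 log2, and Psmb3, at 0.57 log2, just outside it.

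On day 5 the median difference from control was smaller, and the subcomplexes stood further apart. Higher than control were 27 of the 39 (69.2%), beside 50.6% of measured genes, with a median of 0.27 log2 (quartiles -0.09 and 0.49), beside 0.01 log2. Without Psmc3ip the median was 0.29 log2, and under the 5 scalings it lay between 0.18 and 0.36 log2. At least 1.5-fold higher were 7 of the 39 (17.9%), beside 15.1%, so this share was close to that of all genes. At least 1.5-fold lower was Psme4 alone (2.56%), beside 12% of measured genes. Psmc4 alone reached 2-fold upwards and no member did downwards, beside 4.75% and 3.62% of measured genes. Psmb4, at 0.60 log2, lay just inside the bound for 1.5-fold, and Psmd13, at 0.54 log2, just outside it.

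Between the time points, day 5 was mostly below day 2 as deposited. Of the 39 genes, 10 (25.6%) were higher on day 5, beside 44.7% of measured genes, and the median of day 5 minus day 2 was -0.24 log2, beside -0.03 log2. These values moved with the scaling more than those against control. Under quantile normalization, cyclic loess and centring on bright clusters the median was -0.11, -0.12 and -0.07 log2, beside 0.0, 0.0 and 0.11 log2 over measured genes. Under each, 16 of the 39 genes were higher on day 5, beside 48.9%, 48.9% and 59.2% of measured genes. At least 1.5-fold higher were 2, 2 and 3 genes, beside 10.5%, 10.2% and 15.6%. As deposited, none was at least 1.5-fold higher, beside 9.31%, and 4 (Psmd1, Psmd8, Psmd5 and Psme3, 10.3%) were at least 1.5-fold lower, beside 12.8%. Psmd1 alone was at least 2-fold lower and none at least 2-fold higher, beside 3.34% and 2.21%. Psme3, at -0.65 log2, was just inside and Psmd14, at -0.58 log2, just outside. Day 2 was the highest of the 3 arrays for 27 of the 39 genes (69.2%), beside 36.2% of measured genes. Day 5 was the highest for 9 (23.1%, beside 32%) and control for 3 (7.69%, beside 30.3%), namely Psma6, Psmd11 and Psme4.

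**Figure D1:**
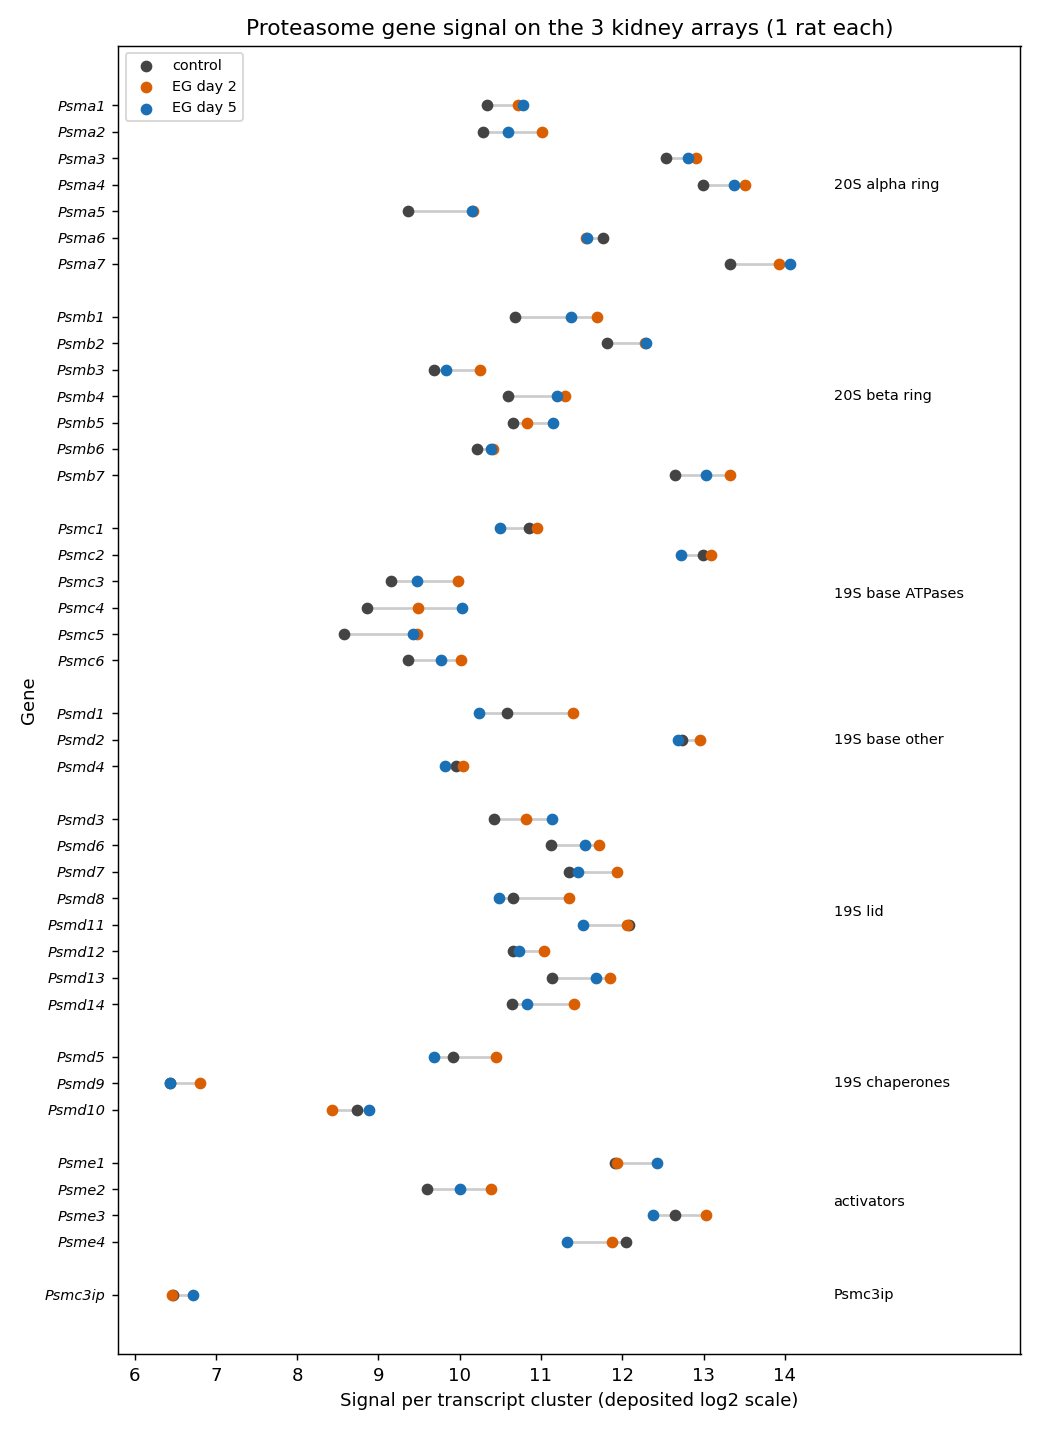
Signal of the 39 measured proteasome genes on each of the 3 arrays (x axis, deposited log2 scale; 1 rat per point; grey bars join the lowest and highest), grouped by subcomplex. The day 2 point is the rightmost for 27 genes, and the control point is the leftmost for 25 genes.

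Most of these genes are bright, and bright genes had their own tendencies. Among the 3616 genes with a mean signal of at least 10 log2, the median differences were 0.06 log2 for day 2 against control, -0.09 log2 for day 5 against control and -0.15 log2 for day 5 against day 2. The 28 proteasome genes as bright as that had medians of 0.44, 0.23 and -0.28 log2. On day 2, 11 of the 28 (39.3%) were at least 1.5-fold higher than control and 0 lower, beside 14.2% and 10.5% of bright genes. On day 5, 4 (14.3%) were higher and 1 (3.57%) lower, beside 12.1% and 19.2%. Between the time points, 0 were higher and 4 (14.3%) lower, beside 6.19% and 17.3%. The bright proteasome genes thus kept a higher median than bright genes in both comparisons with control, while their share at least 1.5-fold lower between the time points was near that of bright genes.

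**Figure D2:**
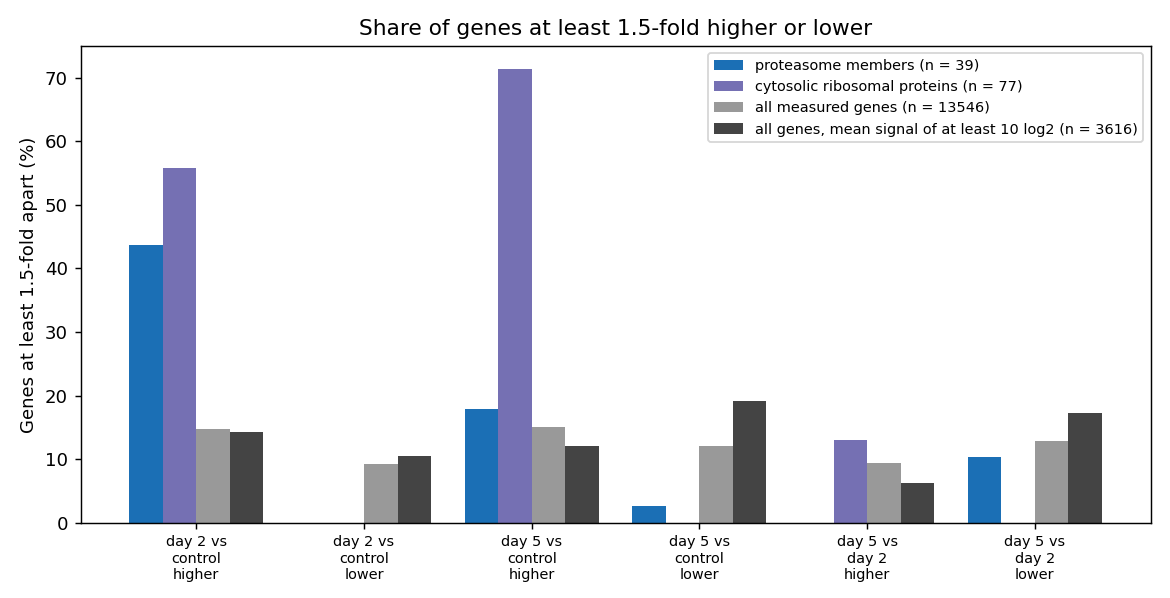
Percent of genes at least 1.5-fold higher or lower in each of the 3 comparisons, for proteasome genes, cytosolic ribosomal protein genes, all measured genes and bright genes (bars start at 0; 1 array per group, so no error bars). The proteasome bar stands above the bars of all measured and bright genes for day 2 higher than control (43.6%, beside 14.8% and 14.2%), and near them for day 5 higher than control.

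The alpha ring of the 20S core was higher on both EG arrays for 6 of its 7 measured genes, beside 36.1% of all measured genes. Its median differences from control were 0.52 log2 on day 2 and 0.39 log2 on day 5. Psma5 was at 9.37, 10.16 and 10.15 log2 on the control, day 2 and day 5 arrays. Psma7 was at 13.32, 13.93 and 14.07 log2. For both, the 2 EG arrays lay close together and above the control. Psma6 was at 11.76, 11.56 and 11.57 log2 and was the sole gene of the ring with the control highest. Psma2 was 1.65-fold above control on day 2 and 1.23-fold on day 5. The other 3, Psma1, Psma3 and Psma4, were between 0.27 and 0.52 log2 above control on both EG arrays.

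All 7 measured beta ring genes were above control on both EG arrays, beside 36.1% of all measured genes. Their medians were 0.57 log2 on day 2 and 0.48 log2 on day 5. Psmb1, a structural beta subunit without proteolytic activity, had the largest day 2 difference of all members, with 10.68, 11.69 and 11.37 log2 (2.01-fold on day 2 and 1.61-fold on day 5). The proteolytic subunits did not move alike. Psmb5, which carries the chymotrypsin-like activity, was at 10.65, 10.83 and 11.15 log2, so day 5 was the highest. Psmb6, which carries the caspase-like activity, was at 10.21, 10.41 and 10.39 log2, within 0.20 log2 across the arrays. Psmb7, which carries the trypsin-like activity, was at 12.65, 13.32 and 13.03 log2, so day 2 was the highest and 1.59-fold above control. Of the other structural subunits, Psmb4 was 1.61-fold and 1.52-fold, Psmb2 1.39-fold at both times, and Psmb3 1.48-fold and then 1.11-fold above control.

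The 6 ATPases of the 19S base had medians of 0.64 log2 on day 2 and 0.37 log2 on day 5. On day 5, 4 genes (66.7%) were above control and 2 below it, beside 50.6% of all measured genes above it. Psmc5 was at 8.58, 9.48 and 9.43 log2, above control by 1.87-fold and 1.80-fold. Psmc4 was at 8.86, 9.49 and 10.03 log2, and its 2.25-fold on day 5 was the largest difference from control of any member. Psmc3 was at 9.16, 9.98 and 9.48 log2, highest on day 2. Psmc1 and Psmc2 differed from these: each was near the control on day 2 and below it on day 5. Psmc1 was at 10.85, 10.95 and 10.5 log2, and Psmc2 at 12.99, 13.09 and 12.72 log2. Psmc6 was 1.57-fold and 1.33-fold above control.

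Among the base subunits that are not ATPases, Psmd1, a large scaffold protein, showed the largest difference between the time points of all members. It was at 10.58, 11.39 and 10.24 log2, 1.75-fold above control on day 2 and 2.22-fold lower on day 5 than on day 2. Psmd2, the other scaffold, differed from control by 0.23 log2 on day 2 and -0.04 log2 on day 5. Psmd4, a ubiquitin receptor, differed by 0.09 and -0.13 log2.

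The 8 lid genes had a median of 0.59 log2 on day 2, with 5 (62.5%) at least 1.5-fold above control, and of 0.16 log2 on day 5, with 1 (12.5%). Over all measured genes these shares were 14.8% and 15.1%, so the day 5 count is near the background. Psmd14 encodes the deubiquitinase that releases the ubiquitin chain, and it was at 10.64, 11.41 and 10.83 log2. Psmd8 was at 10.65, 11.34 and 10.48 log2. Both were well above control on day 2 and within 0.19 log2 of it on day 5. Psmd3 went the other way between the time points, with 10.42, 10.82 and 11.14 log2, and day 5 was the highest. Psmd11, which helps join lid and base to the core, was at 12.08, 12.06 and 11.52 log2, level with control on day 2 and 1.47-fold lower on day 5. Psmd13, Psmd6, Psmd7 and Psmd12 were 1.64-fold, 1.51-fold, 1.51-fold and 1.30-fold above control on day 2 and between 1.05-fold and 1.45-fold on day 5.

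Set side by side, core and cap genes had like medians against control on day 2, and unlike ones on day 5. The 14 core genes had medians of 0.55 log2 on day 2 and 0.42 log2 on day 5, and the 17 cap genes 0.59 and 0.12 log2. The parts of the cap differed on day 5, with medians of 0.37 log2 for the ATPases, -0.13 log2 for the other base genes and 0.16 log2 for the lid. The ATPase median was thus near that of the alpha ring (0.39 log2). Core and cap as pooled sets were not on the planned lists. Above control were 13 core genes (92.9%) at both times, and 16 (94.1%) and then 10 (58.8%) cap genes. Over all measured genes 54.2% and 50.6% were above control, so the cap share on day 5 was near the background. From day 2 to day 5 the core median was -0.06 log2, with 5 of 14 genes (35.7%) above 0. The cap median was -0.31 log2, with 2 of 17 (11.8%) above 0, beside 44.7% of all measured genes. The core median of day 5 minus day 2 changed sign with the scaling between arrays, ranging from -0.10 to 0.12 log2, while the cap median stayed between -0.35 and -0.14 log2. With 1 rat per time point this difference between core and cap has no replicate check and was not tested.

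**Figure D3:**
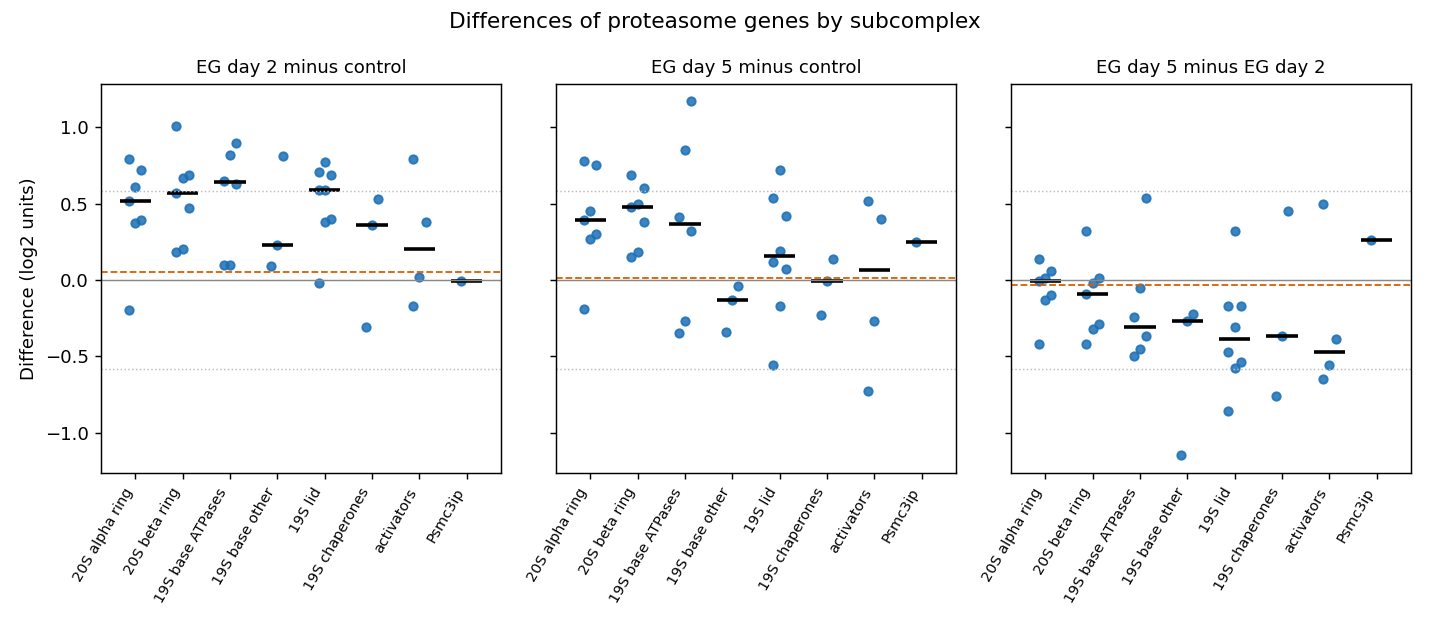
Log2 differences of the 39 measured genes (points) by subcomplex in the 3 comparisons, with black bars at the group medians, the dashed orange line at the median of all measured genes and dotted lines at 1.5-fold. On day 2 the core and cap groups lie mostly above the dashed line; from day 2 to day 5 the cap groups lie mostly below it, while the alpha and beta rings lie about it.

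The 3 chaperones that assemble the ATPase ring had a median of 0.36 log2 on day 2 and -0.01 log2 on day 5, a sign that changed with the scaling (-0.10 to 0.08 log2). Psmd5 was at 9.92, 10.45 and 9.69 log2, so it was highest on day 2 and below control on day 5. Psmd9 differed from control by 0.36 and -0.01 log2. Psmd10, also called gankyrin, was at 8.74, 8.43 and 8.88 log2, lowest on day 2. A dimmer Psmd10 cluster was at 7.37, 7.56 and 7.31 log2, highest on day 2, so the clusters of this gene disagreed in sign in every comparison. Psmc3ip was at 6.47, 6.46 and 6.72 log2.

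The activators followed no common course. Psme1 was at 11.91, 11.93 and 12.43 log2, level on day 2 and 1.43-fold above control on day 5. Psme2, its partner in PA28, was at 9.6, 10.39 and 10 log2, highest on day 2. A cluster that names Psme2 together with LOC100362709 and was left out of the counts was at 10.4, 10.86 and 11.47 log2, highest on day 5, so the order of the EG arrays for Psme2 depends on the cluster. Psme3, whose product forms the nuclear PA28 of one subunit type, was at 12.65, 13.03 and 12.38 log2. Psme4, which encodes PA200, was at 12.05, 11.88 and 11.32 log2. It was 1.66-fold lower than control on day 5, the largest downward difference from control among the members.

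The immunoproteasome genes encode proteolytic beta subunits that are built into the core in immune cells and in cells exposed to interferon gamma in place of the standard ones. Psmb8, the counterpart of Psmb5, was at 6.33, 6.42 and 7.09 log2. Psmb9, the counterpart of Psmb6, was at 7.11, 7.36 and 7.94 log2. Psmb10, the counterpart of Psmb7, was at 5.06, 6.17 and 6.23 log2, under the background level in the control, so it was at least 1.78-fold higher on day 2 and at least 1.85-fold on day 5. All 3 were at least 1.5-fold above control on day 5, at 1.69-fold for Psmb8 and 1.78-fold for Psmb9, and 1 (Psmb10) on day 2. Over all measured genes these shares were 15.1% on day 5 and 14.8% on day 2. Psmb8 and Psmb9 were highest on day 5, while Psmb10 differed by 0.06 log2 between the EG arrays, with a sign that changed with the scaling. The leukocyte and macrophage markers given above were higher on the same arrays, and their part in these values was not tested.

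**Figure D4:**
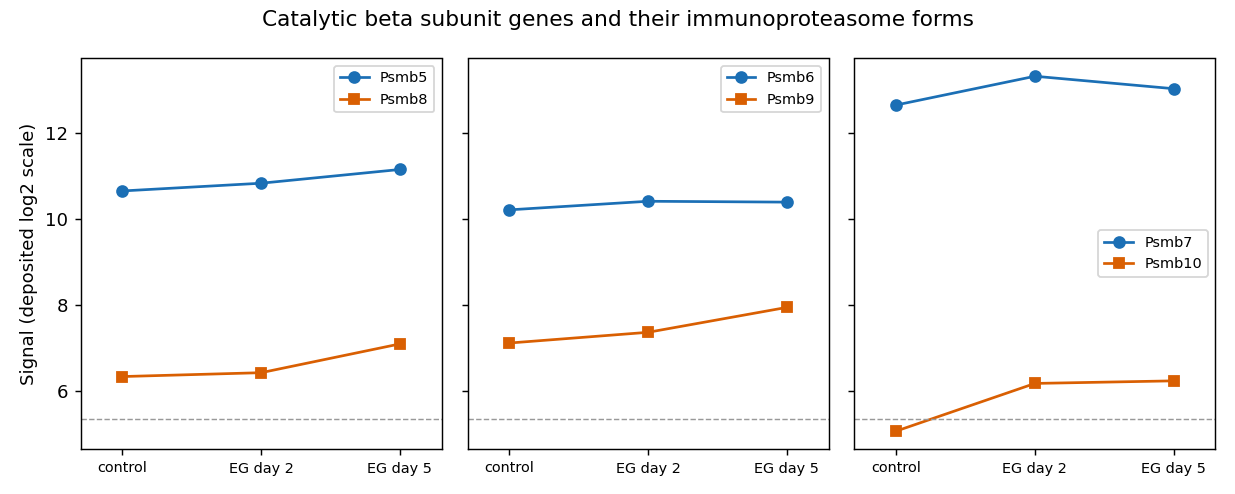
Signal (deposited log2 scale) of the proteolytic beta subunit genes (blue) and their immunoproteasome counterparts (orange) on the control, day 2 and day 5 arrays, 1 rat per point, with the background level of 5.34 log2 dashed. Psmb8 and Psmb9 are highest on day 5, Psmb7 is highest on day 2, and Psmb10 is under the background level in the control; heights of different genes cannot be compared.

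Genes for peptide loading, which takes up the peptides that proteasomes make, gave a mixed picture. Over 7 measured genes of this list (Nlrc5 had no cluster of its own), 2 were at least 1.5-fold above control on day 2 and 0 below, and on day 5 1 was above and 1 below. Over all measured genes these shares were 14.8% and 9.18% on day 2, and 15.1% and 12% on day 5, so the day 5 counts are near the background. The medians were 0.43 and 0.36 log2. Tapbp, which encodes the loading chaperone tapasin, was at 9.01, 10.33 and 10.88 log2. Tap2, part of the peptide transporter, was at 6.37, 6.33 and 5.7 log2, while its partner Tap1 was at 8.37, 8.87 and 8.73 log2. Erap1, which trims peptides, was at 10.77, 11.42 and 11.35 log2.

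As deposited, assembly factors of the 20S core were higher on both EG arrays, and each of the 4 measured ones was further from control on day 5. On day 2 Pomp was 0.02 log2 above control, and under each other scaling tried 3 of the 4 were above control and 1 below it. At least 1.5-fold above control were 2 of the 4 on day 2 and 3 on day 5, beside 14.8% and 15.1% of measured genes, with medians of 0.52 and 1.07 log2. Psmg1 was at 8.8, 9.4 and 9.84 log2. Psmg2 was at 5.88, 6.91 and 6.98 log2. Psmg3 was at 5.7, 6.14 and 6.98 log2. In the control, Psmg2 and Psmg3 lay near the background level of 5.34 log2. Psmg1, Psmg2 and Psmg3 encode chaperones that build the alpha ring. Pomp, which matures the beta ring, stayed within 0.11 log2 of control, at 10.03, 10.05 and 10.14 log2. Psmg4 was under the background level on all 3 arrays, and Paaf1, a chaperone of the 19S ATPases that was on the same list, had no cluster of its own.

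Of 8 measured genes for other proteins that sit on the proteasome, 3 were at least 1.5-fold above control on day 2 and 1 below, and on day 5 0 above and 2 below. Over all measured genes the shares were 14.8% above and 9.18% below on day 2, and 15.1% and 12% on day 5. Usp14, a deubiquitinase of the cap, was at 8.92, 9.92 and 9.37 log2, highest on day 2. Uchl5, another deubiquitinase that binds the cap, was at 9.35, 8.74 and 8.68 log2, highest in the control. Usp14 and the lid's own deubiquitinase gene Psmd14 were above control on both days, and Uchl5 was below it. Adrm1, the ubiquitin receptor that holds Uchl5, was at 9.5, 9.81 and 9.95 log2. Zfand5, which stimulates proteasomes, was at 12.5, 12 and 11.58 log2. Psmf1, an inhibitor of the core, was at 7.58, 8.34 and 8.07 log2. Sem1 and Ecpas had no cluster of their own.

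Of the genes for ubiquitin and its activation, Ubb, a polyubiquitin gene, was at 15.79, 15.76 and 15.48 log2, lowest on day 5. Rps27a, which encodes ubiquitin fused to a ribosomal protein, was at 12.55, 13.11 and 13.52 log2, highest on day 5. Uba1, the main ubiquitin-activating enzyme, was at 12.95, 13.38 and 12.82 log2, highest on day 2. These 3 genes thus had 3 different orders of the arrays.

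Among 9 measured genes for ubiquitin shuttles and the p97 unfoldase, 1 was at least 1.5-fold above control on day 2 and 0 below, and 1 above and 1 below on day 5. These counts are near the shares over all measured genes (14.8% and 9.18% on day 2, 15.1% and 12% on day 5). Ubqln4, a shuttle, was at 10.16, 10.75 and 9.98 log2. Nploc4, a p97 cofactor, was at 11.03, 11.12 and 10.32 log2. Ddi2, the protease that activates NRF1, was at 12.24, 12.23 and 12.85 log2. Vcp, which encodes p97 itself, was at 14.5, 14.92 and 14.7 log2. Ufd1 had no cluster of its own.

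The genes that encode the known regulators of subunit transcription had medians of -0.15 log2 on both days. Of 8 genes, 0 were at least 1.5-fold above control on either day, beside 14.8% and 15.1% of measured genes, and 2 were below on each, beside 9.18% and 12%. In a list of 8, such shares come to about 1 gene. Nfe2l1, which encodes NRF1, was at 12.49, 12.47 and 12.43 log2, within 0.06 log2 of control. NRF1 is known to be controlled largely after translation, which an RNA array does not measure. Nfe2l2, which encodes NRF2, was at 10.89, 10.57 and 11.15 log2. Bach1, a repressor at the same element, was at 11.09, 10.81 and 10.36 log2. Of the small partners, Maff was at 6.86, 5.96 and 5.34 log2, so its day 5 value was at the background level of 5.34 log2. Mafg was at 7.01, 6.33 and 6.81 log2. Mafk, a further partner, was at 7.68, 8.01 and 7.24 log2.

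Of 6 known NRF2 targets outside the proteasome, 4 were above control on day 2 and 0 on day 5, with medians of 0.245 and -0.635 log2. Over all measured genes, 54.2% and 50.6% were above control. Under quantile normalization and under cyclic loess, 1 target was above control on day 5. Of 6, 2 were at least 1.5-fold above control and 1 below on day 2, and 0 above and 3 below on day 5, beside 14.8% above and 9.18% below over all measured genes on day 2 and 15.1% and 12% on day 5. Srxn1, which repairs oxidised peroxiredoxins, was at 7.74, 9.05 and 6.96 log2. Nqo1, a quinone reductase, was at 5.46, 6.37 and 4.69 log2, under the background level on day 5. Both were above control on day 2 and lowest on day 5. Hmox1, heme oxygenase 1, was at 7.81, 7.65 and 6.31 log2. Gclc, which makes glutathione, was at 19.51, 18.49 and 18.42 log2, near the highest value of the table (19.93 log2).

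The cytosolic ribosomal protein genes, which encode another large complex, were set beside the proteasome genes. Of 77 measured, 43 (55.8%) were at least 1.5-fold above control on day 2 and 55 (71.4%) on day 5, with 0 lower on either day. Their medians were 0.61 and 0.73 log2. Between the time points their median was 0.12 log2, above 0 under all 5 scalings tried (0.08 to 0.29 log2), while that of the proteasome genes was below 0 under all 5 (-0.28 to -0.07 log2). On day 2 both sets stood well above the median of all genes, so the higher signal of the proteasome genes was not particular to them.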

How the data were processed

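The authors deposited 1 log2 signal per transcript cluster (the probes of 1 locus) and array, made with Transcriptome Analysis Console on rn6 annotation without a filter, per the submitters' processing notes and the file headers. The sources used here do not give the background correction, normalization or summarisation, and the columns are called averages without saying of what. The deposited log2 values carry 2 decimals and reach 19.93. The scale can therefore stretch or compress RNA differences. Both deposited tables agreed for 69564 of 69564 values. Array medians were 6.21, 6.26 and 6.30 log2.

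Of 23188 clusters, 21502 naming 1 gene were used, with the brightest per gene. Symbols are the files', and all 41 are current RefSeq symbols. The 95th percentile of 1059 olfactory receptor genes served as background level, and lower values were set to it. On the 3 arrays 12752, 12615 and 12804 genes reached it. A difference from a value under it is a lower bound.

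Members and lists were chosen with earlier results of these data known. The 3-array values are printed for the 6 largest differences of each sign from control at each time, 4 of each sign between times, Psmb5 to Psmb7, Psme1 to Psme4, members not measured and Psmb8 to Psmb10. Up to 4 genes of each other list with the largest differences were added, with Nfe2l1, Nfe2l2, Ubb, Adrm1 and Pomp fixed by name. Some genes that this rule takes in are not reported here. On day 2, 5 members were below control. Psmd14 and the cell type markers given by name, Umod, Aqp2 and the fibroblast markers among them, were named after their values were seen. The counting was tested on simulated data. Promoters came from RefSeq (GRCr8), and a planned comparison of protein sequences was not run. Python 3.11.15, pandas 2.3.3, numpy 2.4.6, matplotlib 3.10.9, R 4.3.3 and limma 3.58.1 were used.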

Additional observations from a re-analysis of the deposited data

Results flagged for a closer look

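For 11 of the 39 measured proteasome genes (28.2%), the differences from control on day 2 and day 5 had opposite signs, beside 27.9% of all measured genes, so this share is near the background. Both differences share the control array, and the difference between the times was not tested. Day 5 minus day 2 was -1.15 log2 for Psmd1, -0.86 log2 for Psmd8, -0.76 log2 for Psmd5 and -0.65 log2 for Psme3. It was -0.45 log2 for Psmc1, -0.37 log2 for Psmc2 and for Psmd9, -0.27 log2 for Psmd2 and -0.22 log2 for Psmd4. Psmd10 (0.45 log2) and Psmc3ip (0.26 log2) went the other way, below control on day 2 and above it on day 5. In Psmc1, Psmd2, Psmd4 and Psmd9, 1 of the differences from control also changed sign with the scaling between arrays.

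The cluster naming both LOC100362709 and Psme2, which no count used, was 1.07 log2 above control on day 5. The cluster naming Psme2 alone was 0.40 log2 above control on that array.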

How the results depend on the processing

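Of 150 recomputed values, 130 stayed within 0.1 log2 (medians) or 1.5 times (counts) of the reported one, and 20 did not. The cause of a move was not tested unless the alternative itself removes genes or raises the bound. No median changed sign, and counts have no sign to change. Some of the 130 could not move. The deposited tables are identical, and all 39 genes lay above the background level on every array. Using the other table, requiring that level on all arrays, or lowering it to the median of the olfactory receptor genes therefore left the members' values as they were. The day 2 median stayed between 0.41 and 0.53 log2, with 0.42 after quantile normalization and 0.414 after cyclic loess. The 17 genes at least 1.5-fold above control on day 2 became 11 after quantile normalization, 11 among the 28 bright genes and 1 at a 2-fold bound. The 7 on day 5 became 4 among bright genes and 1 at 2-fold. The 1 lower gene became 2 with arrays centred on their medians and 0 at 2-fold. From day 2 to day 5, the median of -0.24 log2 became -0.113 with quantile normalization and -0.12 with cyclic loess. Centring on clusters with a mean of at least 10 log2, chosen after seeing the data, gave -0.07. Genes at least 1.5-fold higher, 0 as reported, became 2, 2 and 3 under these scalings, beside 10.5%, 10.2% and 15.6% of measured genes. They became 1 (Psme2) with clusters of several genes admitted, beside 9.33%. Genes above 0 went from 10 to 16 under each of these scalings, beside 48.9%, 48.9% and 59.2% of measured genes. The 4 lower genes became 1 at 2-fold. Under the last scaling the median of all measured genes was 0.11 log2 for day 5 minus day 2, beside -0.03. Over all genes, higher calls were 61.8% of calls on day 2 and 55.6% on day 5, but on day 2 48.3% after quantile normalization, 51% after loess and 50.1% after centring on bright clusters, and on day 5 44.2% after median centring and 66.1% after centring on bright clusters. For the members these shares were 100% on day 2 under all 5 scalings and 87.5% on day 5, with 75% after median centring. From day 2 to day 5 they were 0% as deposited, 40% after quantile normalization or loess and 50% after centring on bright clusters, with 42.1%, 49.4%, 48% and 67% over all genes. Of the 39 genes, 36 kept their sign under all 5 scalings against control on each day, and 30 between times. No paired analysis was possible because each group holds 1 rat, and leaving out a replicate was not possible. All 39 genes were above the background level on every array. The number of arrays limits the precision.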
